A study of Homo sapiens with 4 samples.

Results

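The genes described here are antisense long noncoding RNAs, transcripts read from the strand opposite a neighbouring or overlapping gene and named after that gene with -AS and a number. They were taken by 2 criteria: a symbol that ends in this way, and a mean log2 intensity over all 4 arrays above the median of that mean over 19798 genes (log2 6.76). Of 604 such antisense genes on the array, 76 lay above the median and 528 at or below it. RefSeq classed 75 of the 76 as lncRNA and 1 as antisense_RNA. The gene that gives an antisense gene its name is called its sense gene below, and 71 of the 76 had a measured one. The exceptions were LIPT2-AS1, ELFN1-AS1, NUTM2A-AS1, UBE2D3-AS1 and DLGAP1-AS1.

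The cells were HCT-116, an epithelial line from a human colorectal tumour, of a kind labelled dicer-. Dicer is the enzyme that releases microRNAs from their hairpin precursors, and all 4 samples carried this label. There was 1 array for the miR-124 duplex G/P, whose guide strand is intact, 1 array for the miR-124 duplex G10.12/P, whose guide strand is segmented, and 2 arrays for mock transfection. Both duplexes were given at 10 nM, and all RNA was taken at 24 h. The labels do not spell out what the code of the segmented strand stands for. Total RNA was measured as biotin-labelled cRNA on 1-colour arrays. The study set the segmented and the intact guide strand against mock transfection, and the antisense genes give that comparison for noncoding transcripts. Because each duplex had a single array, its values have no replicate check. Nothing in the labels tells whether the mock samples were separate cultures. The p-values then measure only the spread between the 2 mock arrays, with limma's prior over genes, and that spread may be technical.

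Some antisense RNAs start from the same promoter region as their sense gene and run the other way, others lie across the body of the sense gene, and for a few an effect on the sense gene has been described. miR-124 is best known from neurons, and the guide strand of such a duplex leads Argonaute proteins to messenger RNAs that pair with its seed. Many antisense RNAs are rare transcripts. In bulk RNA of this kind, fewer cells that make a transcript and less of it per cell cannot be told apart.

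The layout of the pairs was read from RefSeq (GRCh38.p14), which gave a promoter window, the 250 bases before to 50 after a gene's start, for 62 of the 76 antisense genes. In 61 pairs both genes had a window. All 61 were on opposite strands, with overlapping bodies in 47 and none in 14. In 19 pairs the windows overlapped, by 26 to 284 bases, so that the annotated starts of both genes lie within one stretch of DNA, and in 42 they did not. The next 3 windows share bases with the sense window. They are shown because the RNAs that start from them differ in response to the intact duplex. The first antisense RNA went up while its sense gene went down, the second went up with its sense gene, and for the third only the sense gene changed. Each is 5′ to 3′ on the antisense gene's strand, and capitals mark the bases that the sense window holds too. The first is chr19:9621232-9621531, plus strand, the second chr5:78360492-78360791, minus strand, and the third chr6:138773654-138773953, minus strand.
ZNF561-AS1: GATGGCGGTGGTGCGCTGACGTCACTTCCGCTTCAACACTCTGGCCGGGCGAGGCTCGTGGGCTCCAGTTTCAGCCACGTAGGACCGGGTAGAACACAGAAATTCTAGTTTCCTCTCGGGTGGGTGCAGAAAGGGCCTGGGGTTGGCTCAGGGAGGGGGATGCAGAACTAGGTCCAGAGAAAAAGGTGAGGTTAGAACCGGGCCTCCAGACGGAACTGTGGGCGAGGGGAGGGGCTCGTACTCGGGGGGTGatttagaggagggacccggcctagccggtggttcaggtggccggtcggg
SCAMP1-AS1: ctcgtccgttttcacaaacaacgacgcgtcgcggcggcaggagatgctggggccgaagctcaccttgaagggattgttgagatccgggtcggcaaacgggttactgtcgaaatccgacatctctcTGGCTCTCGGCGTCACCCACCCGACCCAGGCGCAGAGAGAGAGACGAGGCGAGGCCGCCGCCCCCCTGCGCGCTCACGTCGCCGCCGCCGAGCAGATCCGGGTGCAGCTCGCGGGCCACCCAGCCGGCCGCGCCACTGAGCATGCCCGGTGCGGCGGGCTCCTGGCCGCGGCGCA
CCDC28A-AS1: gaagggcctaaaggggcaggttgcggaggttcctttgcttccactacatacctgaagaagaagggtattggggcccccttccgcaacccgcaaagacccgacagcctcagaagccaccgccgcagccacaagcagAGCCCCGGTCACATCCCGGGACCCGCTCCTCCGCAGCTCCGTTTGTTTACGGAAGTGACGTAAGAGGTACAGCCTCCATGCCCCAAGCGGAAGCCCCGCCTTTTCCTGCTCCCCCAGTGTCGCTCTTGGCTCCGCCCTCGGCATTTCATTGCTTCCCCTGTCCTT

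Of the next windows, neither overlaps the sense window, and they are shown because they belong to the antisense gene with the highest rise and to one of the brightest. Capitals mark CCAAT boxes and GC boxes, spelled out further on. The first is chr6:138691418-138691717, plus strand, and the second chr15:41283740-41284039, plus strand.
NHSL1-AS1: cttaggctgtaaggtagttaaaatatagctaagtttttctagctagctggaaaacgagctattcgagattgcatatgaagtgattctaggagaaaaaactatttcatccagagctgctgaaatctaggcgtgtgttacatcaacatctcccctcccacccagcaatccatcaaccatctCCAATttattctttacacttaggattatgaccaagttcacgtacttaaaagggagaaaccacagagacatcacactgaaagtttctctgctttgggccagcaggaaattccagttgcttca
OIP5-AS1: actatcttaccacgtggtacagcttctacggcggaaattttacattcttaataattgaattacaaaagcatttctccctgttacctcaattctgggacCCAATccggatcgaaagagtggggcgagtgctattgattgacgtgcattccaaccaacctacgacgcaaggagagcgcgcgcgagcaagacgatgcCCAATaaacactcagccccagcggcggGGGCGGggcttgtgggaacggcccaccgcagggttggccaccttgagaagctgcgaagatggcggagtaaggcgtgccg

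Over all genes, log2 levels correlated at 0.993 between the intact and segmented arrays, at 0.976 to 0.977 between intact and mock, at 0.988 to 0.989 between segmented and mock, and at 0.997 between the mock arrays. DICER1 differed from mock by -0.11 with the intact and -0.45 with the segmented duplex, neither past the test (limma adjusted p = 0.560 and 0.122). The median of all genes lay 0.24 higher on the intact and 0.19 higher on the segmented array than on the mock arrays, in log2 units. The median of the changes of single genes was only 0.02 (intact) and 0.01 (segmented). Centring each array on its median, used below, takes the larger shifts of the array medians off every gene, so centred changes lean downwards. Of 9 measured markers of colon epithelium, 7 lay above the median level, with EPCAM at 13.04, and CDH1, CDX2 and ELF3 rose with the intact duplex, by 0.79, 0.69 and 0.63 (limma adjusted p = 0.0227 to 0.0423), while none of the 9 passed with the segmented duplex. Of 10 markers of other cells, COL1A1 (9.02) and ALB (7.06) lay above the median level, and the other 8 had means of 2.20 to 4.85. Summed over those 10 markers, the linear intensity was 1108.2 (intact), 839.6 (segmented) and 667.8 and 590.4 (mock). Most of this sum was COL1A1, at log2 9.76 (intact), 9.21 (segmented) and 8.71 and 8.41 (mock), so it does not stand for the markers in general. COL1A1 rose by 1.20 with the intact duplex (limma adjusted p = 0.0208) and GFAP fell by 0.70 (limma adjusted p = 0.0399), while none of the 10 passed with the segmented duplex. The part of these in the results that follow was not tested.

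The mean levels of the 76 antisense genes ran from 6.77 to 12.62, with a median of 7.60. There were 51 below 8, 14 between 8 and 10, and 11 at 10 or above. These means chose the genes and are a description. The intensity of a probe set depends on its probes as well as on the amount of RNA, so an order of levels here is one of probe set intensities and not of amounts of RNA. The table carries no detection calls, and no level is given as above background. Just inside the median level lay CLN8-AS1 (6.77), KANSL1-AS1 (6.80) and KCNJ5-AS1 (6.87), and just outside ZBED5-AS1 (6.74), MORC2-AS1 (6.72) and MELTF-AS1 (6.69). The SD between the mock arrays ranged up to 0.36 among the 76 genes, with that highest value in FOXN3-AS1.

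**Figure D1:**
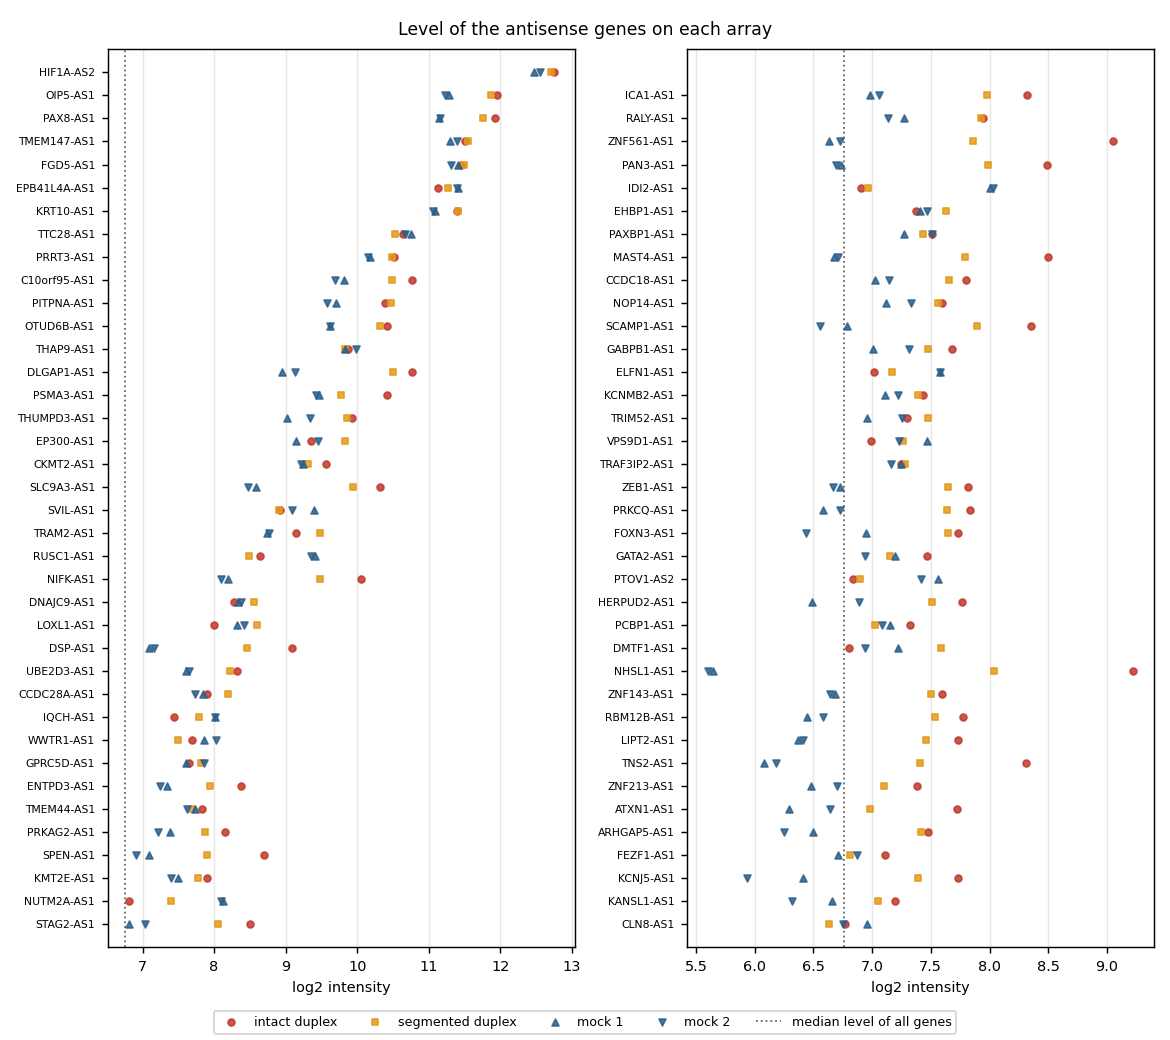
Log2 intensity of 75 of the 76 antisense genes on the intact, segmented and 2 mock arrays, ordered by mean level. In NHSL1-AS1 both duplex arrays (9.22 and 8.04) lie far to the right of the mock arrays (5.64 and 5.61), while in HIF1A-AS2 all arrays lie between 12.47 and 12.74.

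The mean that chose the genes includes the duplex arrays, so a gene could pass the median level because a duplex raised it. In 19 of the 76 genes the mock mean lay at or below log2 6.76, and in 15 of these both mock arrays did. Such genes had to differ upwards, and counts over all 76 lean that way. The main counts are therefore also given for the 67 antisense genes, all of them among the 76, whose mean over the mock arrays alone exceeded the median of that mean over all genes (6.62).

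With the intact duplex, far more of the antisense genes went up than down. Of the 76, 35 rose, 6 fell and 35 did not pass limma's test at an adjusted p of 0.05 over all genes. Over all genes 24.9% passed, 14.5% as rises and 10.4% as falls, and among the 9899 genes above the median level 20.5% rose and 17.1% fell. The median change was 0.61 among the 76 and 0.09 among all genes above the median level. When each array was centred on its median, these were 0.37 and -0.15, and 28 of the 76 rose and 9 fell, where 30.7% of all genes passed, 1990 as rises and 4080 as falls. Of the 67 chosen on the mock arrays alone, 27 (40.3%) rose and 6 fell. Of the 9899 genes of any kind above the same level, 1881 rose and 17.7% fell, and the medians were 0.37 and 0.07. Of the 57 genes with a mock mean above 6.76, 18 rose and 6 fell, with a median of 0.27, and of the other 19, 17 rose. By mean level, 26 of the 51 genes below 8 rose and 5 fell, with a median of 0.71. Between 8 and 10, 5 of 14 rose and 1 fell (median 0.36), and at 10 or above 4 of 11 rose and 0 fell (median 0.32). The genes of any kind set beside the 76 were not matched to them by level. Among the antisense genes at or below the median level 57 of 528 rose and 15 fell. By size alone, 37 of the 76 were at least 1.5-fold above both mock arrays, against 13.7% of all genes, and 3 at least 1.5-fold below, against 9.52%. Of the 67, 29 (43.3%) lay that far above and 3 that far below, against 1686 and 1613 of the 9899 genes above the same level. Between the mock arrays, none of the 76 differed by 1.5-fold, against 13 of the 9899 genes above the median level and 640 of all genes. The intact array lay above both mock arrays in 56 of the 76 and below both in 15, against 44.0% and 39.8% of all genes. Of the 67 it lay above both in 47 and below both in 15, against 51.6% and 41.3%.

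**Figure D2:**
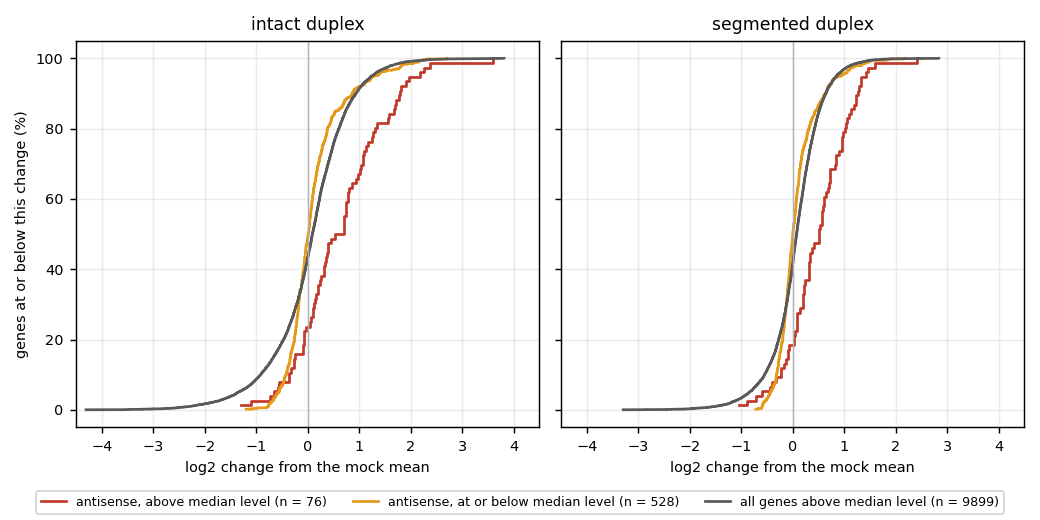
Share of genes (%) at or below each log2 change from the mock mean, for the 76 antisense genes above the median level, the 528 at or below it and all 9899 genes above it. Above a change of 0 the 76 lie to the right of the others with both duplexes, with medians of 0.61 (intact) and 0.51 (segmented), and 19 of them had a mock mean at or below the median level.

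NHSL1-AS1 had the largest rise. Its log2 level was 9.22 (intact) and 8.04 (segmented), against 5.64 and 5.61 on the mock arrays. It was 12.1-fold higher than mock with the intact duplex (log2 change 3.60, limma SE 0.12, adjusted p = 0.00822) and 5.32-fold higher with the segmented duplex (2.41, limma adjusted p = 0.0349). Both duplex arrays lay above both mock arrays. Its sense gene NHSL1, which encodes a regulator of cell migration that binds the WAVE complex, had levels of 10.44 (intact), 9.91 (segmented) and 9.53 and 9.56 (mock), and rose by 0.90 with the intact duplex (limma adjusted p = 0.0177).

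ZNF561-AS1, beside a zinc finger protein gene, had levels of 9.05 (intact), 7.86 (segmented) and 6.63 and 6.72 (mock). It rose by 2.37 with the intact duplex (5.18-fold, limma adjusted p = 0.00822) and by 1.18 with the segmented duplex (2.27-fold, limma adjusted p = 0.0371). The arrays did not overlap, with the segmented array midway between the intact and the mock arrays. TNS2-AS1, antisense to the focal adhesion gene tensin 2, had 8.31 (intact), 7.41 (segmented) and 6.08 and 6.18 (mock), and rose by 2.18 and 1.28 with the intact and the segmented duplex (limma adjusted p = 0.00824 and 0.0363). Its second probe set changed by 0.31 and 0.04, so the size of this rise rests on 1 probe set. With the mean of its probe sets it rose by 1.25 with the intact duplex (limma adjusted p = 0.00788), and the change of 0.66 with the segmented duplex did not pass (limma adjusted p = 0.0555).

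DSP-AS1, SLC9A3-AS1 and NIFK-AS1 rose with both duplexes as well. DSP-AS1, antisense to desmoplakin of the desmosome, had 9.09 (intact), 8.46 (segmented) and 7.10 and 7.16 (mock), a rise of 1.96 and 1.33 (limma adjusted p = 0.00824 and 0.0354). SLC9A3-AS1, named after a sodium and proton exchanger of the gut, had 10.32 (intact), 9.95 (segmented) and 8.58 and 8.48 (mock), a rise of 1.79 and 1.42 (limma adjusted p = 0.00869 and 0.0354). Neither DSP (0.34 and 0.04) nor SLC9A3 (0.17 and 0.10) passed the test with either duplex. NIFK-AS1, antisense to the gene of a nucleolar protein that binds Ki-67, had 10.05 (intact), 9.47 (segmented) and 8.20 and 8.09 (mock), a rise of 1.90 and 1.33 (limma adjusted p = 0.00829 and 0.0362).

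Another 5 rises were among the 12 largest with the intact duplex, all with duplex values above both mock arrays. MAST4-AS1, named after a kinase gene, rose by 1.81 and PAN3-AS1, named after a subunit of an mRNA deadenylase, by 1.78. DLGAP1-AS1, named after a postsynaptic scaffold gene, rose by 1.72 and SPEN-AS1, named after a transcriptional repressor, by 1.70. SCAMP1-AS1, named after a vesicle membrane protein, rose by 1.68 (limma adjusted p = 0.00829 to 0.0100 for the 5). Of these, 4 also rose with the segmented duplex, by 1.10 (MAST4-AS1), 1.27 (PAN3-AS1), 1.46 (DLGAP1-AS1) and 1.22 (SCAMP1-AS1), while SPEN-AS1 had a change of 0.90 and a limma adjusted p of 0.0531. Both mock values of NHSL1-AS1, ZNF561-AS1, TNS2-AS1, MAST4-AS1 and PAN3-AS1 lay below the median level, so these genes are among those that the duplex arrays brought in. A second, dimmer probe set of SPEN-AS1 went the other way with the intact duplex (-0.11). The other 23 rises with the intact duplex ranged from 0.70 to 1.57. The 35 genes that did not pass ranged from -0.36 to 1.04.

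**Figure D3:**
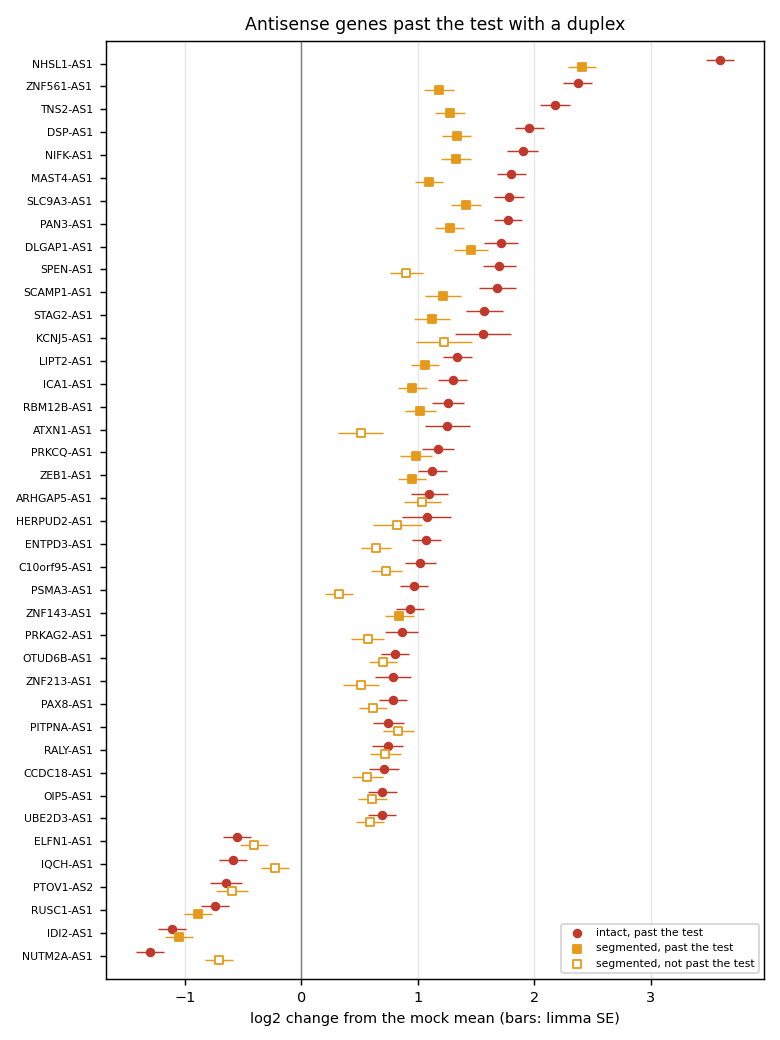
Log2 change from the mock mean for the antisense genes past limma's test with either duplex, except 1 that is not shown, intact above segmented in each row, with bars of 1 limma SE. Changes with the intact duplex run from 3.60 (NHSL1-AS1) to -1.30 (NUTM2A-AS1), and open markers did not pass.

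The falls were fewer and smaller. NUTM2A-AS1 had 6.81 (intact), 7.40 (segmented) and 8.13 and 8.10 (mock), and fell by 1.30 with the intact duplex (2.47-fold lower, limma adjusted p = 0.0100), while its change with the segmented duplex was -0.71 (limma adjusted p = 0.0584). IDI2-AS1, antisense to the gene of an isopentenyl diphosphate isomerase of the isoprenoid pathway, had 6.90 (intact), 6.97 (segmented) and 8.001 and 8.031 (mock). It fell by 1.11 and 1.05 (limma adjusted p = 0.0126 and 0.0386). RUSC1-AS1, antisense to the gene of an adaptor protein, had 8.64 (intact), 8.49 (segmented) and 9.41 and 9.35 (mock). It fell by 0.74 and 0.89 (limma adjusted p = 0.0258 and 0.0451). In each of these genes both duplex arrays lay below both mock arrays. PTOV1-AS2, IQCH-AS1 and ELFN1-AS1 fell with the intact duplex by 0.65, 0.58 and 0.55 (limma adjusted p = 0.0403 to 0.0449), and had changes of -0.59, -0.23 and -0.41 with the segmented duplex, none past the test. With the mean of its probe sets PTOV1-AS2 no longer passed with the intact duplex (-0.30, limma adjusted p = 0.25), and its second probe set had a change of 0.05.

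The segmented duplex gave fewer calls. Of the 76, 18 rose, 2 fell and 56 did not pass limma's test, where 5.99% of all genes passed, 3.31% as rises and 2.68% as falls, and among genes above the median level 4.48% rose and 4.79% fell. The median change was 0.51 among the 76 and 0.07 among all genes above the median level. Of the 67 chosen on the mock arrays, 14 (20.9%) rose and 2 fell, against rises in 3.71% of all genes above the same level, and the medians were 0.34 and 0.06. Of the 57 with a mock mean above 6.76, 6 rose and 2 fell, with a median of 0.31, and of the other 19, 12 rose. By mean level, 15 of the 51 genes below 8 rose and 1 fell (median 0.57). Between 8 and 10, 3 of 14 rose and 1 fell (median 0.43), and at 10 or above 0 of 11 rose and 0 fell (median 0.32). At least 1.5-fold above both mock arrays lay 30 of the 76, against 7.37% of all genes, and 3 lay as far below, against 4.89%. Of the 67, 24 (35.8%) lay that far above and 3 that far below, against 8.6% and 8.59% of all genes above the same level. The segmented array lay above both mock arrays in 57 and below both in 12, against 42.0% and 37.5% of all genes, and among the 67 in 48 and 12, against 51.1% and 38.1%. Among the 8 largest rises were those of NHSL1-AS1, DLGAP1-AS1 (1.46), SLC9A3-AS1, DSP-AS1, NIFK-AS1, TNS2-AS1 and PAN3-AS1, and the other 10 ranged from 0.84 to 1.22. The count was more open to the settings than that of the intact duplex, and the share over all genes moved too. With 16 added to each intensity 43 of the 76 and 21.6% of all genes passed, without the dimmest 40% of genes 48 and 40.2%, and with a trended, robust prior 50 and 27.4%. With each array centred on its median 17 rose and 4 fell, where 9.34% of all genes passed, 593 as rises and 1256 as falls. Both comparisons with mock share the mock arrays, so a mock value that happens to be low raises the change of a gene with both duplexes. The genes that did not pass had changes of -0.71 to 1.22.

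Set directly against each other, the duplexes gave no antisense gene past the test. In limma's fit, 0 of the 76 genes had an adjusted p under 0.05 for segmented minus intact, as did 0.0% of all genes, and the smallest adjusted p among the 76 was 0.181. At an unadjusted p under 0.05 there were 14 of the 76 and 3273 of all genes. With 16 added to each intensity 7 of the 76 and 5.75% of all genes passed, without the dimmest 40% of genes 13 and 15.6%, and with a trended, robust prior 14 and 12.2%. The difference was negative in 55 of the 76 and positive in 21, with a median of -0.13, against -0.02 over all genes. It was negative in 10442 of all 19798 genes and in 5279 of the 9899 above the median level. The 76 include genes that the duplex arrays brought in. The 95% interval held 0 in 62 genes, lay below 0 in 11 and above 0 in 3, and it reached 0.39 to 0.83 to either side of the difference. The largest differences downwards were in ZNF561-AS1 (-1.19, 95% interval -1.60 to -0.78), NHSL1-AS1 (-1.19, -1.58 to -0.79), TNS2-AS1 (-0.90, -1.32 to -0.48) and SPEN-AS1 (-0.80, -1.26 to -0.33). Upwards they were in DMTF1-AS1 (0.79, 0.22 to 1.35), named after a Myb-like transcription factor, NUTM2A-AS1 (0.59, 0.20 to 0.99), LOXL1-AS1 (0.59, 0.18 to 1.01), named after a lysyl oxidase that crosslinks elastin, and EP300-AS1 (0.47, -0.11 to 1.06), named after a histone acetyltransferase. DMTF1-AS1 had 6.80 (intact) and 7.59 (segmented), with 7.22 and 6.93 (mock) between them. These intervals are not adjusted for the number of genes and take their spread from the mock pair and the prior.

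Of the 6 brightest antisense genes, 4 did not pass with either duplex. HIF1A-AS2, antisense to the gene of a hypoxia-induced transcription factor, had 12.74 (intact), 12.70 (segmented) and 12.47 and 12.56 (mock), differences of 0.23 and 0.19 (limma adjusted p = 0.268 and 0.411). TMEM147-AS1 (0.16 and 0.21), FGD5-AS1 (0.10 and 0.13) and EPB41L4A-AS1 (-0.26 and -0.13), host of a small nucleolar RNA, were the others. HIF1A itself had 12.73 (intact), 12.71 (segmented) and 12.54 and 12.64 (mock), close to HIF1A-AS2. The means of TMEM147 and TMEM147-AS1 were also close (11.48 and 11.43). In both pairs the gene bodies overlap, and whether each probe set reads its own strand was not tested. FGD5 (3.84) and EPB41L4A (8.96) had means below those of their antisense genes (11.42 and 11.30). PAX8-AS1, antisense to the gene of a thyroid and kidney transcription factor, had 11.93 (intact), 11.76 (segmented) and 11.14 and 11.15 (mock). It rose by 0.79 with the intact duplex (limma adjusted p = 0.0221), while 0.62 with the segmented duplex did not pass (limma adjusted p = 0.0712). Of the 11 genes at log2 10 or above, 4 rose with the intact duplex, and the median change was 0.32 for either duplex.

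OIP5-AS1, also known as cyrano, which in mice promotes the decay of the microRNA miR-7, had 11.95 (intact), 11.87 (segmented) and 11.28 and 11.23 (mock). It rose by 0.70 with the intact duplex (1.62-fold, limma SE 0.12, adjusted p = 0.0288) and had a change of 0.61 with the segmented duplex (limma adjusted p = 0.0738). Its other 3 probe sets changed by 0.88, 0.38 and 0.76 with the intact duplex, all upwards. When each array was centred on its median the change with the intact duplex was 0.45 and no longer passed (limma adjusted p = 0.0624). OIP5, the sense gene, encodes a protein that helps to load the centromere histone CENP-A. It had 7.76 (intact), 8.47 (segmented) and 10.24 and 10.21 (mock), and fell by 2.47 and 1.76 (limma adjusted p = 0.00822 and 0.0349). The ratio of antisense to sense was thus 3.16 higher on the log2 scale with the intact duplex and 2.37 higher with the segmented duplex (limma adjusted p = 0.00101 and 0.0143 over 555 pairs).

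Such ratios were formed on each array for all 555 antisense genes with a measured sense gene, to test whether the antisense gene changed otherwise than its sense gene. Among the 71 pairs the ratio was higher with the intact duplex in 27, lower in 5 and not past limma's test in 39, where 16.2% and 8.11% of all 555 were higher and lower. For the segmented duplex 11 were higher and 1 lower, where 5.95% and 1.8% of all 555 were. Ratios of genes that the duplex arrays brought in lean upwards as well. Over the 63 pairs chosen on the mock arrays alone, 23 were higher and 5 lower with the intact duplex, and 10 higher and 1 lower with the segmented duplex. When all probe sets of each gene were averaged, 14 ratios passed with the intact and 0 with the segmented duplex. The sense gene lay above the median level in 54 of the 71 pairs. Where it is dim, the ratio can mostly repeat the change of the antisense gene. Among the higher ratios with the intact duplex, SLC9A3-AS1, KCNJ5-AS1, ENTPD3-AS1, PRKCQ-AS1 and C10orf95-AS1 had sense genes with mean levels of 2.81 to 5.79. Among the lower ones, IQCH (6.17) and LOXL1 (6.42) lay below the median level. The strand that each probe set reads was not tested here, and for pairs with overlapping bodies the ratio assumes that the names are right.

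ZNF561-AS1 had the largest ratio change with the intact duplex, 3.39 (limma adjusted p = 0.00101). For the segmented duplex its ratio change was 2.05 (limma adjusted p = 0.0143), below that of OIP5-AS1. The sense gene went the other way. ZNF561 had 8.74 (intact), 8.89 (segmented) and 9.70 and 9.81 (mock), and fell by 1.02 and 0.87 (limma adjusted p = 0.0162 and 0.0492). OTUD6B-AS1 had 10.42 (intact), 10.32 (segmented) and 9.61 and 9.61 (mock), while OTUD6B, which encodes a deubiquitinase, had 9.51 (intact), 10.32 (segmented) and 11.42 and 11.53 (mock). The antisense gene rose by 0.80 and its sense gene fell by 1.96 with the intact duplex (limma adjusted p = 0.0211 and 0.00829), and the ratio was higher by 2.76 and 1.85 with the intact and the segmented duplex (limma adjusted p = 0.00123 and 0.0180). NHSL1-AS1 had ratio changes of 2.70 and 2.05 although both genes rose with the intact duplex, and NIFK-AS1 of 2.34 and 1.64. In ZEB1-AS1, antisense to the gene of a repressor of E-cadherin, the ratio was higher by 1.85 and 1.87 (limma adjusted p = 0.00457 and 0.0180). ZEB1-AS1 itself had 7.82 (intact), 7.64 (segmented) and 6.72 and 6.66 (mock), a rise of 1.12 and 0.95, while ZEB1 had differences of -0.72 and -0.92 that did not pass (limma adjusted p = 0.0565 and 0.0676).

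The ratio was lower in 5 pairs with the intact duplex. IQCH-AS1 had 7.43 (intact), 7.79 (segmented) and 8.02 and 8.01 (mock), and IQCH 6.78 (intact), 6.63 (segmented) and 5.46 and 5.80 (mock). The antisense gene fell and the sense gene rose with the intact duplex. The change of the ratio from mock was -1.74 with the intact and -1.22 with the segmented duplex (limma adjusted p = 0.00576 and 0.0406). In the other 4 the antisense gene did not pass. VPS9D1-AS1 had a ratio change of -1.57, with a rise of VPS9D1 of 1.21. GATA2-AS1 had -1.19, with a rise of 1.59 of GATA2, a transcription factor of blood and endothelium. TRAF3IP2-AS1 had -1.02, with a rise of 1.07 of TRAF3IP2, an adaptor of the interleukin 17 receptor. LOXL1-AS1 had -1.07, and LOXL1 did not pass (0.71, limma adjusted p = 0.0718). The limma adjusted p of these 4 ratios ran from 0.00644 (VPS9D1-AS1) to 0.0358 (LOXL1-AS1).

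**Figure D4:**
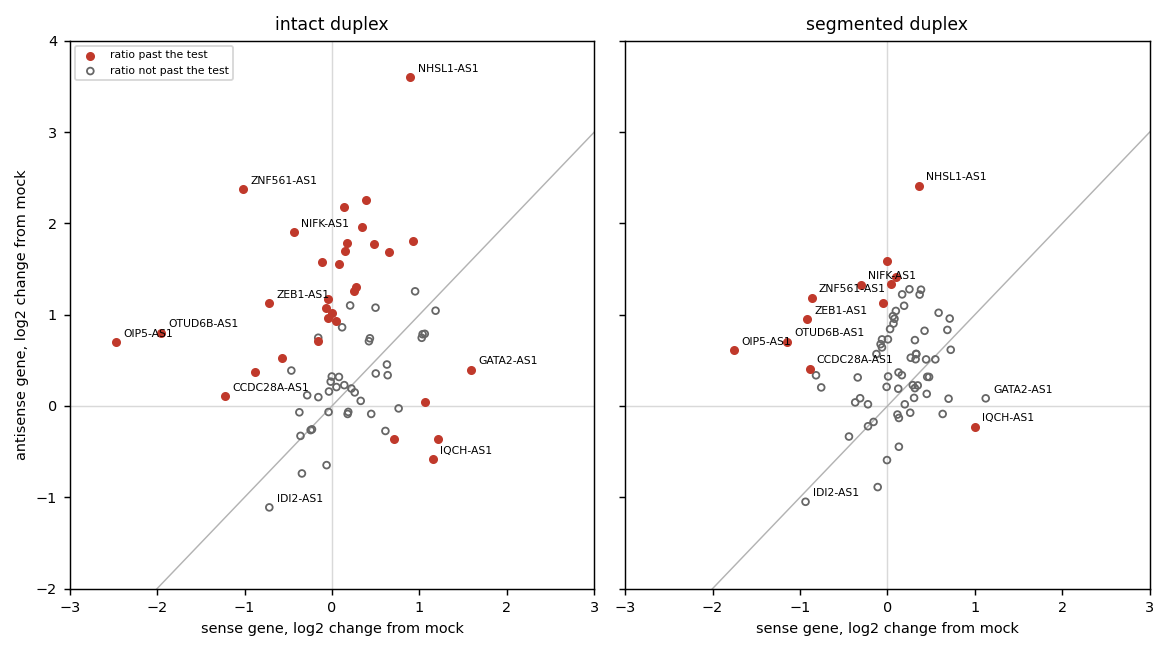
Log2 change of each antisense gene (vertical) against that of its sense gene (horizontal) in the 71 pairs, for the intact and the segmented duplex, with filled points for ratios past limma's test. OIP5-AS1, OTUD6B-AS1 and ZNF561-AS1 lie to the upper left, and the points do not follow the line of equal change (r = 0.06 and 0.07).

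With the intact duplex the sense gene did not pass in 22 of the 32 pairs whose antisense gene rose and in 50 of all 71 pairs, where 75.1% of all genes did not pass. In 5 of the 22 the sense gene lay at or below the median level, ENTPD3, SLC9A3, KCNJ5 and PRKCQ among them, where a missing call says little. Of the 71 pairs, both genes rose in 7, among them MAST4-AS1, NHSL1-AS1, PAX8-AS1 and SCAMP1-AS1. The antisense gene rose and the sense gene fell in 3 (OIP5-AS1, OTUD6B-AS1 and ZNF561-AS1), and the antisense gene alone passed as a rise in 22. Both fell in 1 pair (IDI2-AS1, where IDI2 fell by 0.72), the antisense gene fell and the sense gene rose in 1 (IQCH-AS1), and the antisense gene alone passed as a fall in 2 (PTOV1-AS2 and RUSC1-AS1). The sense gene alone rose in 7 and fell in 2, and neither passed in 26. The 2 sense genes were CCDC28A and NOP14, named after their values were seen. For the segmented duplex, the antisense gene alone rose in 15 pairs, both rose in 0, and the antisense gene rose while the sense gene fell in ZNF561-AS1 only among the 71. The sense gene thus did not pass in 15 of the 16 pairs whose antisense gene rose. It did not pass in 65 of all 71 pairs either, where 94.0% of all genes did not pass, so the 15 of 16 are near the share over all genes. Of the sense genes, 15 rose and 6 fell with the intact duplex and 1 rose and 5 fell with the segmented duplex, with medians of 0.14 and 0.12.

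Across the 71 pairs the change of the antisense gene correlated with that of the sense gene at r = 0.06 (Spearman's rho 0.09) with the intact duplex and r = 0.07 (rho 0.06) with the segmented duplex. For mock 2 minus mock 1 the values were -0.07 and -0.11. In the 54 pairs whose sense gene lay above the median level, r was 0.13 with the intact and 0.11 with the segmented duplex, and over all 555 pairs r was 0.10 with each. The pairs share their arrays and are not independent, and these are descriptions without a test.

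In the 19 pairs whose promoter windows overlap, 10 antisense genes rose and 1 fell with the intact duplex, with a median of 0.70, and 3 of 18 measured sense genes rose and 2 fell, with a median of 0.05. In the 42 pairs without shared windows, 18 antisense genes rose and 4 fell, with a median of 0.39, and 8 of 38 sense genes rose and 3 fell, with a median of 0.16. For the segmented duplex, 7 antisense genes of the 19 rose and 1 fell (median 0.59), and 0 sense genes rose and 2 fell (median 0.06). Of the 42, 8 antisense genes rose and 1 fell (median 0.33), and 1 sense gene rose and 2 fell (median 0.17). All 19 pairs with shared windows are among those chosen on the mock arrays, and of the 42 without, 37 are, of which 13 antisense genes rose and 4 fell with the intact duplex, with a median of 0.34, and 5 rose and 1 fell with the segmented duplex, with a median of 0.31. Over all genes 14.5% rose and 10.4% fell with the intact duplex, and 3.31% and 2.68% with the segmented duplex. Among all genes above the median level these shares were 20.5% and 17.1%, and 4.48% and 4.79%. The difference between these groups of pairs was not tested.

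The printed windows show 3 of these patterns. From the first, ZNF561-AS1 was higher and ZNF561 lower with both duplexes, although 251 of the 300 bases are common to both windows. From the second, with 175 bases shared, SCAMP1-AS1 had 8.35 (intact), 7.89 (segmented) and 6.78 and 6.56 (mock), and SCAMP1 rose with the intact duplex by 0.65 (limma adjusted p = 0.0373). From the third, with 165 bases shared, CCDC28A-AS1 had 7.90 (intact), 8.20 (segmented) and 7.85 and 7.73 (mock) and did not pass, while CCDC28A had 7.70 (intact), 8.03 (segmented) and 8.90 and 8.95 (mock) and fell by 1.23 and 0.89 (limma adjusted p = 0.0112 and 0.0447). CCDC28A-AS1 was chosen after its values were seen.

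**Figure D5:**
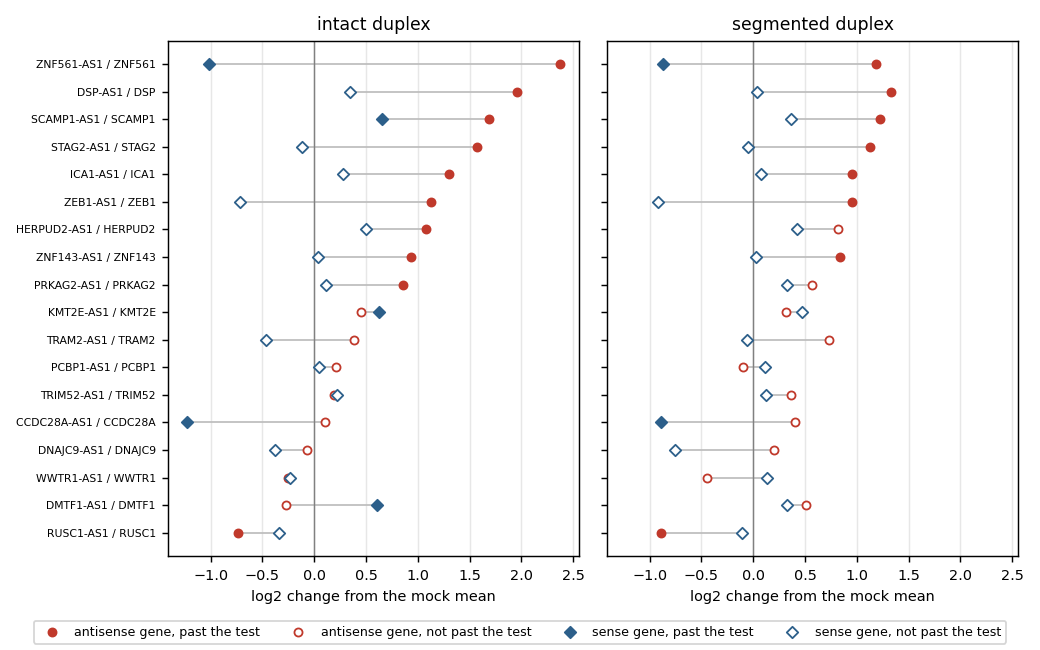
Log2 change from the mock mean of the antisense gene (circle) and its sense gene (diamond) in the 18 pairs with overlapping promoter windows and a measured sense gene, for both duplexes. Filled symbols passed limma's test, and in ZNF561-AS1 they lie on both sides of 0 with both duplexes.

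The promoter windows were searched on both strands for 4 short motifs, none of which lies within another: the GC box GGGCGG, the CCAAT box CCAAT, the ETS site CCGGAAG and the TATA box TATAAA. The GC box was in 59.7% of the 62 windows of antisense genes above the median level, in 60.7% of the 28 that rose with the intact duplex, in 38.5% of the 390 windows of antisense genes at or below the median level, in 57.8% of the windows of all genes of the array and in 44.6% of all 27305 windows. The CCAAT box was in 33.9%, 32.1%, 32.8%, 36.2% and 35.7% in the same order. The ETS site was in 14.5%, 21.4% and 7.18% of the first 3 of these, in 2150 of 15403 windows of genes of the array and in 10.7% of all windows. The TATA box was in 1.61%, 0.0% and 8.21% of the first 3, in 9.3% of the windows of genes of the array and in 3264 of all windows. The median GC content was 64.0% in the 62 windows, 57.3% in the 390, 62.7% in the windows of genes of the array and 58.3% in all windows, and the median number of CG pairs was 22.5, 10.5, 22.0 and 14. Of the printed windows, that of OIP5-AS1 holds CCAAT and GC boxes, that of NHSL1-AS1 a CCAAT box, that of SCAMP1-AS1 a GC box, that of CCDC28A-AS1 both, and that of ZNF561-AS1 none of the 4. A match of letters is not a bound site.

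Another 3 antisense genes were named because they are well described. PSMA3-AS1, named after a proteasome subunit gene, had 10.41 (intact), 9.77 (segmented) and 9.47 and 9.42 (mock), and rose by 0.97 with the intact duplex (limma adjusted p = 0.0156), while its change with the segmented duplex was 0.32 (limma adjusted p = 0.199). THUMPD3-AS1, named after a tRNA methyltransferase gene, had changes of 0.75 and 0.68 that did not pass (limma adjusted p = 0.0576 and 0.116), and its mock values were 9.03 and 9.33. GABPB1-AS1, named after a subunit of an ETS factor, had 0.52 and 0.31, and did not pass (limma adjusted p = 0.116 and 0.347), but its ratio to GABPB1 was higher by 1.10 with the intact duplex (limma adjusted p = 0.0249).

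Of the 76 genes, 46 had 1 probe set and 30 several. In the 13 genes with several that rose with the intact duplex, 17 of 19 other probe sets went the same way, and so did 8 of the 8 that lay above the median level. The exceptions were a probe set each of PRKAG2-AS1 and SPEN-AS1. Of the falls, PTOV1-AS2 had another probe set with a change of 0.05. With the segmented duplex, 4 of 4 other probe sets of genes that rose and 1 of 1 of genes that fell went the same way. All these counts take the sign alone. Of the 4, those of TNS2-AS1 (0.04) and PRKCQ-AS1 (0.05) lay near 0, and those of DLGAP1-AS1 and ICA1-AS1 had changes of 0.88 and 0.87.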

How the data were processed

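The values deposited by the authors are linear intensities, 1 for each probe set in each sample, from RMA per the submitters' processing notes, with no version given in the sources used here. Background removal, normalization to a like distribution and probe summary are part of RMA, so a change common to most genes may be hidden. The log2 of each intensity was taken without a pseudocount. Of 52377 probe sets, 35184 had 1 gene in the platform annotation, with symbols updated through RefSeq for 35134, and the brightest stood for its gene. limma 3.58.1 (R 4.3.3) was fitted to all 4 arrays, with a mean for each of 3 groups and 1 residual degree of freedom, over 19798 genes and again over 555 antisense to sense ratios. Benjamini-Hochberg adjustment ran over each whole table. Each duplex array is taken to vary as the mock pair does, and the number of arrays limits precision. The test was tried on simulated data. All deposited sample columns were used. Sequences are RefSeq's, from GRCh38.p14.

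The members, gene lists and tests were chosen with earlier results of these data known. By rule, the text names the 12 largest rises and 8 largest falls past the test with the intact duplex, the 8 and 6 largest with the segmented duplex, the 4 largest differences between the duplexes each way, the 6 brightest genes, 3 genes either side of the median level, the 5 largest ratio changes each way, up to 4 opposite pairs and 8 well described genes, with their sense genes; 6 intact falls and 2 segmented falls passed. Alternatives were a further quantile normalization, centring, a filter on dim genes, another prior, the mean of probe sets, a pseudocount of 16, members chosen on the mock arrays, and each mock array left out. A gene that the naming rule would include is not reported here.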

Additional observations from a re-analysis of the deposited data

How the results depend on the processing

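With 1 array per duplex, no replicate check of a duplex is possible, and with a mock array left out there is no residual degree of freedom, so those values have no test. No paired analysis was possible because each duplex has 1 array and shares no 2 replicate numbers with mock. The count past limma's test with the segmented duplex, 20 of 76, was 43 with 16 added to each intensity, 48 without the dimmest 40% of genes and 50 with trend and a robust prior. For segmented minus intact, 0 became 7, 13 and 14 under the same 3 settings, and for the ratio with the segmented duplex 12 became 36, 29 and 28, and 0 with the mean of all probe sets. The ratio count with the intact duplex, 32, was 14 with that mean. The median change with the intact duplex, 0.61, was 0.55 with 16 added, 0.37 with each array centred on its median, 0.54 after quantile normalization, 0.41 with the mean of probe sets, 0.37 with members chosen on the mock arrays, and 0.56 to 0.61 with a mock array left out. With the segmented duplex, 0.51 was 0.46, 0.32, 0.44, 0.46, 0.34 and 0.43 to 0.50. Centring left 28 rises and 9 falls with the intact and 17 and 4 with the segmented duplex. The count past the test with the intact duplex and both counts at 1.5-fold stayed within 1.5 times in all settings run. Both correlations over pairs were near 0 in all settings run, from -0.02 with members chosen on the mock arrays to 0.13 with bright sense genes for the intact duplex, and from 0.0056 to 0.11 for the segmented duplex.

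Among 76 changes of named genes, 38 past the test, 608 repeats left 532 on the same side, 58 newly past it, 3 no longer past it and 15 reversed, none of a change past the test. No longer past it were OIP5-AS1 (intact, 0.45, centred) and, with the mean of probe sets, PTOV1-AS2 (intact, -0.30) and TNS2-AS1 (segmented, 0.66). Centring reversed EP300-AS1 (-0.19), FGD5-AS1 (-0.15), HIF1A-AS2 (-0.0155), TMEM147-AS1 (-0.0853) and TRAF3IP2-AS1 (-0.20) with the intact duplex, and FGD5-AS1 (-0.0612), GATA2-AS1 (-0.11), HIF1A-AS2 (-0.0044) and TRAF3IP2-AS1 (-0.11) with the segmented duplex. Quantile normalization reversed TRAF3IP2-AS1 (intact, -0.0289), the mean of probe sets GABPB1-AS1 (segmented, -0.0092), and leaving out a mock array gave, from lowest to highest, -0.19 to 0.0162 for CLN8-AS1 (intact), -0.0993 to 0.21 for EP300-AS1 (intact), -0.0433 to 0.21 for GATA2-AS1 (segmented) and -0.21 to 0.0327 for VPS9D1-AS1 (segmented). The causes were not tested.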

Other observations

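Other noncoding genes above the median level can be set beside the 76 antisense genes, as counts without a test. Divergent transcripts, whose symbols end in -DT and which start close to a neighbouring gene and run away from it, numbered 25. Of these 16 rose and 2 fell with the intact duplex, with a median of 0.73, and 1 rose and 1 fell with the segmented duplex, with a median of 0.53. Intergenic RNAs (LINC) numbered 33, of which 10 rose and 4 fell with the intact duplex and 3 rose and 1 fell with the segmented duplex, with medians of 0.20 and 0.10. The hosts of small nucleolar RNAs (SNHG) numbered 11, of which 1 rose and 2 fell with the intact duplex, with medians of -0.01 and, for the segmented duplex, 0.15. Among all genes above the median level, 20.5% rose and 17.1% fell with the intact duplex, and 4.48% rose and 4.79% fell with the segmented duplex. The lists of noncoding genes too were chosen by a mean that includes the duplex arrays.

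Of 26 well known long noncoding RNAs, 14 were measured and 2 lay above the median level. DANCR, 1 of these, had 12.01 (intact), 11.92 (segmented) and 11.83 and 11.79 (mock), and did not pass (limma adjusted p = 0.313 and 0.617). HOTAIR, a regulator of chromatin first described at the HOX loci, was the only one of the 14 past limma's test with the intact duplex, at a level below the median (5.16, against 4.58 and 4.48 in mock, adjusted p = 0.0394). HOTAIR and DANCR were chosen after their values were seen.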
